A study of Mus musculus with 12 samples.

Results

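The genes described here are the mouse genes of major histocompatibility complex (MHC) class II antigen presentation, taken by symbol from a table of 32774 genes. All 8 members of the set were found: H2-Aa, H2-Ab1, H2-Eb1, H2-DMa, H2-DMb1, H2-Oa, Cd74 and Ciita. Poly-A RNA was sequenced from vascular anomalies of adipose tissue and from normal fat, all of C57BL/6 mice. The anomaly mice carried VEC-Cre (Cre driven by a VE-cadherin promoter, active in endothelium), the SB Transposase (Sleeping Beauty, an enzyme that moves transposons) and an onc3 transposon. Control mice carried the SB Transposase and onc3 and no Cre, so both groups share the transposon system. The anomaly group held 8 libraries of 7 animals, of which 5 animals had lesions titled subQ and 2 (18f and M278) lesions titled fat. For M566 a leg piece and an arm piece were sequenced, and their log2 values were averaged. The 4 control libraries came from 4 animals and were all titled fat. No ages are given in these sources. One of 2 header lines gives M605 a control name, and it was kept as an anomaly because the other line and the labels say so. Sleeping Beauty insertions can differ between lesions, so anomaly animals need not share a lesion genotype. As a check of the tissue, 8 adipocyte genes summed to between 20223 and 56285 CPM (counts scaled to a common library total) in the controls and between 413 and 19814 in the anomalies.

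MHC class II molecules sit on the surface of dendritic cells, macrophages and B cells and show peptides to CD4 T cells. The α and β chains assemble with the invariant chain in the endoplasmic reticulum, endosomal proteases trim that chain down to the CLIP fragment, and the DM molecule exchanges CLIP for other peptides. The coactivator CIITA has to be recruited to conserved X and Y boxes in front of these genes, by the RFX, NF-Y and CREB factors, before they are transcribed. Interferon gamma can switch CIITA on in cells that otherwise lack it, endothelial cells among them. In adipose tissue the main carriers are resident macrophages and dendritic cells. C57BL/6 mice make I-A alone, because their gene for the I-E α chain is defective, although the I-E β chain gene H2-Eb1 is still transcribed.

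Class II genes, taken singly, did not pass the test between anomalies and normal fat. Of the 7 members tested, 0 passed in either direction, where 38.5% of 12955 tested genes did and 15.3% were called higher. At an unadjusted p under 0.05 limma gave 0 members, and limma-voom on recovered reads called 0 as well (38.7% of all genes in either direction, 15.9% higher). Over all genes 23.2% were called lower. No member had groups that did not overlap with the anomalies above, which 8.3% of genes did. Their median log2 fold change, anomaly minus control, was 0.75, beside -0.10 over all tested genes. The means hide one animal. In 18f, 7 of 8 members had their lowest level of all 11 animals, which was so for 6.24% of tested genes. Because 18f was singled out by these low values, the results without it, here and below, are descriptive. They add no support for a rise. Without 18f, 7 of 7 tested members passed (median 1.20, beside -0.12 over all genes, of which 44.8% were then called in either direction and 17.7% higher). The groups of 2 members, Ciita and H2-Oa (not among the tested genes), then no longer overlapped, as for 11% of genes. Leaving out M580, the shallowest library, together with 18f gave 7 of 7 again, with 42.7% of all genes called and 17.8% higher.

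The promoter windows of 4 members are printed to show matches to fixed X and Y box sequences. They run from 250 bases before to 50 after the annotated start, on GRCm38.p6 (RefSeq), written 5′ to 3′ on the strand of the gene: H2-Aa at chr17:34287774-34288073 (minus strand), H2-Eb1 at chr17:34305617-34305916, H2-DMb1 at chr17:34152941-34153240 and H2-Oa at chr17:34092129-34092428 (plus strand). Capitals mark matches, on either strand, to ATTGG (the core of the Y box), CTGATTGG (its longer form, which contains ATTGG) or ACNGATG (an X box sequence).
H2-Aa: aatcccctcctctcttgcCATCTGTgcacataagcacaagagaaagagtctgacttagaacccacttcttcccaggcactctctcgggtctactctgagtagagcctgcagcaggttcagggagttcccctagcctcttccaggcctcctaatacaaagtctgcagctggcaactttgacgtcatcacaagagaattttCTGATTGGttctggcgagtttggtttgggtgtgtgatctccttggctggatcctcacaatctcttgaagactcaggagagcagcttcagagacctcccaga
H2-Eb1: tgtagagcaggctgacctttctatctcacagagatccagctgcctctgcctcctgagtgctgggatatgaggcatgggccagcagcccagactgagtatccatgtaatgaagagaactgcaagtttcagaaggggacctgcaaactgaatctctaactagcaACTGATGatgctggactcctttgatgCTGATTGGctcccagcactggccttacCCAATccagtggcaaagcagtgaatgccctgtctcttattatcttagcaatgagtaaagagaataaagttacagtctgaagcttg
H2-DMb1: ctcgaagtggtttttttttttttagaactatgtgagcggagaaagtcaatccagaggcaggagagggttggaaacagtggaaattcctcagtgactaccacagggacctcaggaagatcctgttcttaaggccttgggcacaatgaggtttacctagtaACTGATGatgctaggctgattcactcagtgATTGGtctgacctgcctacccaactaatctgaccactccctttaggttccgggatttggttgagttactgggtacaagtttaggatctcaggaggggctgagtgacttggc
H2-Oa: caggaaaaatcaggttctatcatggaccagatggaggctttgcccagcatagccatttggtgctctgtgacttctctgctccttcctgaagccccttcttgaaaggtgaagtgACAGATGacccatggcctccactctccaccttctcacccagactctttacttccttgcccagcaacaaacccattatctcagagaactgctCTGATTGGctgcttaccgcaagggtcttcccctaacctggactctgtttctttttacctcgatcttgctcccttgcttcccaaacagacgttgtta
Of 32851 promoter windows of the same length, 37.4% held ATTGG, 4.1% held its longer form and 9.85% held ACNGATG. The X box sequence followed within 30 bases by the Y box core, both on the strand of the gene, was found in 0.128% of windows. Of 5 members with a window, 2 had this order, H2-Eb1 and H2-DMb1, with 22 and 23 bases between the motifs and the first motif beginning 88 and 91 bases before the start. H2-Aa and H2-Oa held the longer form of the Y box without ACNGATG in that range. No other X box sequence was searched, so a missing match does not show that a window lacks an X box. H2-DMa had 2 windows, chr17:34122582-34122881 and chr17:34125268-34125567, with no ACNGATG. The second held a single ATTGG that begins 198 bases before its start. Both lie inside the annotated span of the gene (34119541 to 34139101), and whether its transcripts begin there in these samples was not tested. A match is a description of letters and does not show that a factor binds there.

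The classical chains had closely similar levels and patterns over the animals. H2-Ab1, the β chain of I-A (chromosome 17, 34257689 to 34269419), stood at 7.98, 7.93, 7.54 and 8.48 log2 CPM in controls F539, M5, M602 and M2. In the 7 anomaly animals its lowest, median and highest levels were 5.82, 9.29 and 10.22 log2 CPM. The lowest was 18f and the highest M278, the other lesion titled fat, so the anomaly animals lie on both sides of the controls and 5 of 7 exceed the highest control. The log2 fold change of H2-Ab1 was 0.82 ± 0.71 (SE, n = 7 and 4, 1.77-fold on the means), with a 95% interval from -0.74 to 2.38 and an adjusted p of 0.376 (limma, Benjamini-Hochberg over all tested genes). Without 18f the change was 1.32 ± 0.40 (adjusted p = 0.0217).

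H2-Aa, the α chain of I-A (chromosome 17, 34282744 to 34287823), stood at 8.23, 8.40, 8.09 and 8.96 log2 CPM in the same controls. Its anomaly animals ran from 6.13 (18f) through a median of 9.42 to 10.91 (M278) log2 CPM, and 4 of 7 were above the highest control. The fold change was 0.75 ± 0.74 on the log2 scale (adjusted p = 0.439), and 1.26 ± 0.44 without 18f (adjusted p = 0.0396). H2-Eb1, the β chain of I-E (chromosome 17, 34305867 to 34316674), ran from 5.68 (18f) to 10.41 (M278) log2 CPM in anomalies and from 7.79 to 8.74 in controls. Its change was 0.68 ± 0.75 (adjusted p = 0.496), and 1.20 ± 0.42 without 18f (adjusted p = 0.0402). The pseudogene of the I-E α chain, H2-Ea-ps (chromosome 17, 34341959 to 34344645), had 0 reads in 11 libraries and 1 read in M580. H2-Eb1 was thus counted at a level close to the I-A chains without reads from its partner gene.

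**Figure D1:**
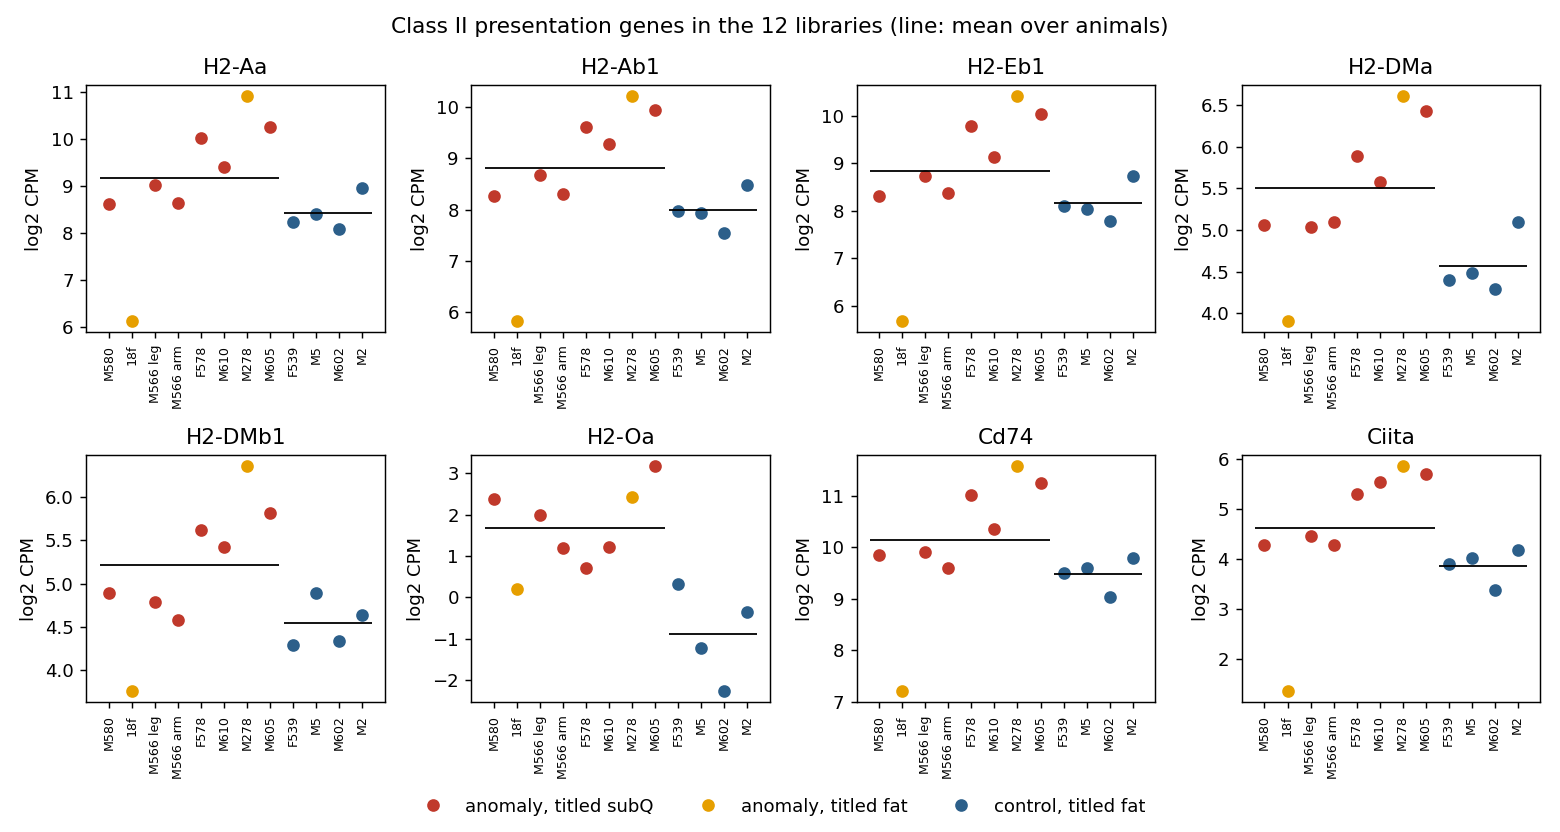
Log2 CPM of the 8 members (y axis, a scale of its own in each panel) in the 12 libraries (x axis), coloured by group and by the site in the title; lines are group means over animals. In 7 of the 8 panels 18f is the lowest point, and M278, the other lesion titled fat, is at or near the top.

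Differences between genes within an animal show how closely the chains kept together. H2-Aa minus H2-Ab1 had an SD of 0.15 over the 11 animals and H2-Eb1 minus H2-Ab1 one of 0.14, where H2-Ab1 itself varied with an SD of 1.5 over the anomaly animals. Neither difference shifted between the groups past the threshold, at -0.07 and -0.15 log2 (exact permutation tests, two-sided, adjusted p = 0.692 and 0.250 over 11 fixed pairs, n = 7 and 4). The smallest p that the 330 regroupings of 11 animals allow is 0.00303. In 18f the differences were 0.31 and -0.14, so the chains were low together there. The leg and arm pieces of M566 were close as well, with H2-Ab1 at 8.68 and 8.30 log2 CPM and H2-Aa at 9.02 and 8.64.

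Cd74 encodes the invariant chain (chromosome 18, 60803848 to 60812652). It stood at 9.50, 9.60, 9.03 and 9.79 log2 CPM in the controls F539, M5, M602 and M2. Anomaly animals had a lowest level of 7.20 (18f), a median of 10.35 and a highest level of 11.58 (M278), and 5 of 7 were above every control. The log2 fold change was 0.66 ± 0.70 (adjusted p = 0.472), and 1.15 ± 0.39 without 18f (adjusted p = 0.0353). Cd74 minus H2-Ab1 was 1.34 ± 0.16 in anomalies and 1.5 ± 0.14 in controls (mean ± SD, n = 7 and 4), a difference of -0.16 that was not past the threshold (exact permutation test, adjusted p = 0.250).

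Ciita, the gene of the coactivator (chromosome 16, 10480059 to 10528418), followed nearly the same order of anomaly animals at a far lower level. The controls F539, M5, M602 and M2 had 3.89, 4.01, 3.37 and 4.18 log2 CPM. Among the anomalies 18f had 1.35 log2 CPM and the next lowest animal 4.27, while the median was 5.30 and the highest 5.85. The 6 anomaly animals other than 18f were all above the highest control. The log2 fold change was 0.76 ± 0.74 (adjusted p = 0.432) with all animals and 1.31 ± 0.34 without 18f (adjusted p = 0.0119). The 83 reads of Ciita in 18f, a library of 29763059 reads, are well above the counting floor of 3 reads. Ciita minus H2-Ab1 was -4.18 ± 0.25 in anomalies and -4.12 ± 0.16 in controls (SD), and this difference did not pass (exact permutation test, n = 7 and 4, adjusted p = 0.811). Dexi on the other strand shares 3.5% of the exon bases of Ciita, and an unstranded library cannot tell such reads apart.

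**Figure D2:**
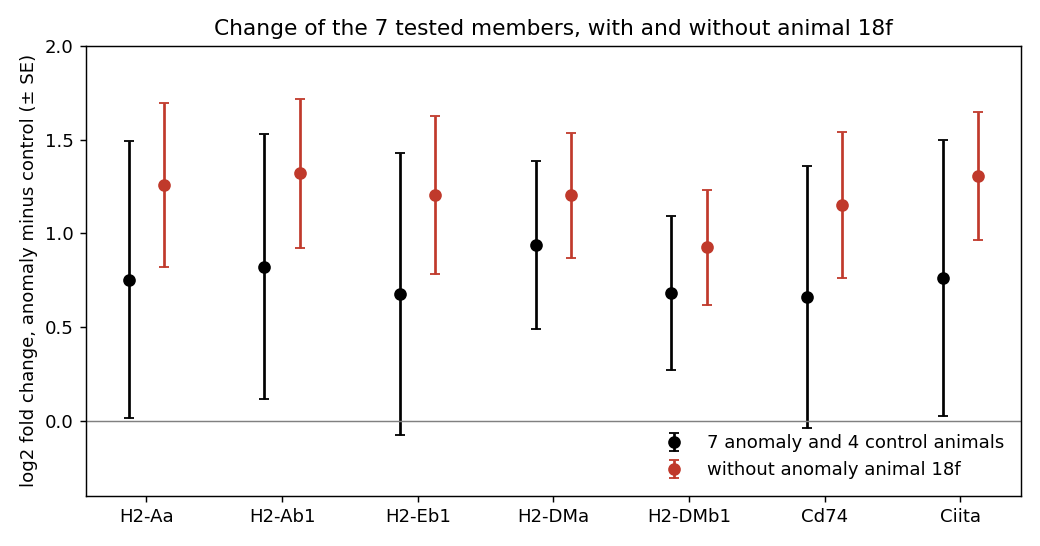
Log2 fold change, anomaly minus control, with its SE for the 7 members tested (y axis), from all animals (black) and without anomaly animal 18f (red). Every black point lies between 0.66 and 0.94, and every red point lies higher, between 0.93 and 1.32, with a shorter error bar. Animal 18f was singled out by its low values of these genes, so the red points are descriptive.

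The DM chains, which load peptides, had smaller SDs over the anomaly animals (0.93 for H2-DMa and 0.86 for H2-DMb1) than the classical chains. H2-DMa (chromosome 17, 34119541 to 34139101) stood at 4.40, 4.49, 4.29 and 5.09 log2 CPM in the controls and between 3.91 (18f) and 6.61 (M278) in the anomalies, with a median of 5.58. It had the smallest adjusted p of the set, with a log2 fold change of 0.94 ± 0.45, a 95% interval from -0.05 to 1.92 and an adjusted p of 0.119. H2-DMa was the one tested member past the threshold when reads were scaled by library totals (1.36, adjusted p = 0.0329, with 35.2% of all genes called higher, 12.1% lower and 47.3% in either direction). That scaling moved the median of all genes from -0.10 to 0.33. H2-DMb1 (chromosome 17, 34153072 to 34160230) ran from 4.29 to 4.90 log2 CPM in controls and from 3.76 (18f) to 6.36 (M278) in anomalies, with a change of 0.68 ± 0.41 (adjusted p = 0.209). Without 18f the changes of H2-DMa and H2-DMb1 were 1.20 (adjusted p = 0.0151) and 0.93 (adjusted p = 0.0321).

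In 18f the DM genes lay less far down than the classical chains. H2-DMa stood 1.86 below the mean of the other 6 anomaly animals and H2-DMb1 1.71 below, where H2-Ab1 stood 3.48 and Ciita 3.82 below on the log2 scale. H2-DMa minus H2-Ab1 was accordingly -1.92 in 18f and between -3.72 and -3.20 in the other anomaly animals. Averaged over groups this difference did not pass (0.11, exact permutation test, n = 7 and 4, adjusted p = 0.894). Exons of H2-DMa overlap those of Brd2 on the other strand over 10.4% of their bases.

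H2-Oa encodes the α chain of DO, which restrains DM and is made chiefly by B cells and some dendritic cells (chromosome 17, 34092340 to 34095234). Its controls F539, M5, M602 and M2 had 0.33, -1.23, -2.27 and -0.35 log2 CPM, on 14, 11, 5 and 24 reads. Anomaly animals ran from 0.19 (18f) through 1.59 to 3.17 (M605) log2 CPM, and 6 of 7 were above the highest control. The group means were 1.67 ± 1.05 and -0.88 ± 1.13 (SD), a difference of 2.55 log2, or 5.87-fold. With a mean of 0.74 log2 CPM over 11 animals H2-Oa missed the minimum of 1 and was not among the genes tested. It passed limma with no minimum (2.55 ± 0.62, adjusted p = 0.0151, where 15% of 32774 genes were called and 6.59% called higher). In M580, a library of 953994 reads, its level rests on 7 reads. BC051537 on the other strand shares 22.8% of the exon bases of H2-Oa.

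H2-Oa minus H2-DMa, the balance of the inhibitor chain against its target, was -3.83 ± 0.82 in anomalies and -5.45 ± 1.03 in controls (SD, n = 7 and 4). The shift of 1.62 had an exact permutation p of 0.0212 and an adjusted p of 0.233, so it did not pass. In 4 of 7 anomaly animals the balance was above every control.

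Per kilobase of exon, with the exons of all annotated transcripts merged, Cd74 was the most abundant member in both groups. Its mean was 8.74 log2 CPM per kilobase in controls and 9.40 in anomalies. In controls it was followed by H2-Eb1 at 7.21, H2-Ab1 at 6.62 and H2-Aa at 6.49 log2 CPM per kilobase, and then by H2-DMb1 at 3.79, H2-DMa at 2.78, Ciita at 0.61 and H2-Oa at -1.37. H2-Ab1 and H2-Aa lay closer than their SD of 0.39 and 0.38 over animals. In anomalies the order was the same, with H2-Eb1 at 7.89, H2-Ab1 at 7.45, H2-Aa at 7.25, H2-DMb1 at 4.47, H2-DMa at 3.72, Ciita at 1.37 and H2-Oa at 1.18. There the gaps from H2-Aa to H2-DMb1 and from H2-DMa to Ciita exceeded the SD of either gene, the gap from Cd74 to H2-Eb1 was about as large as the SD, and the other neighbours lay closer than their SD. In both groups these SDs are over animals and do not measure how steady the order was within an animal. Within anomaly animals H2-Eb1 minus H2-Ab1 had an SD of 0.14, H2-Aa minus H2-Ab1 0.17 and H2-DMb1 minus H2-DMa 0.17. In both groups the order of the classical chains depends on the length used. Merged exons give 3798, 2568 and 1944 bases for H2-Aa, H2-Ab1 and H2-Eb1. Their longest protein-coding transcripts have 1128, 1212 and 1669 bases.

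The other class II genes of the locus included those known mainly from B cells. H2-DMb2, a second DM β chain gene (chromosome 17, 34143307 to 34151555), rose by 1.92 ± 0.69 (adjusted p = 0.0475), from 0.97 ± 0.48 log2 CPM in controls to 2.89 ± 1.44 in anomalies (SD). That call was marginal: it was lost with limma-voom (adjusted p = 0.166), and without any single animal other than 18f or M610 (adjusted p up to 0.122). The control mean of H2-DMb2 lies below the minimum of 1, so the gene was tested through its anomaly values. H2-DMb1 and H2-DMb2 transcripts share 94.8% of 1211 aligned bases, so reads from shared stretches could have been miscounted or lost for either gene. This was not tested. H2-Ob, the β chain of DO, had a change of 1.47 ± 0.90 (adjusted p = 0.215) and 2.12 without 18f (adjusted p = 0.00483), with 18f at -0.83 log2 CPM and the controls between 1.16 and 1.91. H2-Eb2 was below the minimum level, with means of 0.86 ± 1.80 in anomalies and -2.09 ± 1.02 log2 CPM in controls (SD), and 18f at -2.63.

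Of 7 genes of factors that bind class II promoters 1 was called higher and 0 lower, with a median log2 fold change of 0.03. This share is near the 15.3% of all tested genes called higher. That one was Nfya, an NF-Y subunit gene, at 0.71 ± 0.25 (adjusted p = 0.0440). Its call was lost without any one of the animals except M580 and F539 (adjusted p up to 0.152). Rfx5, the RFX subunit gene, was at 0.27 ± 0.17 (adjusted p = 0.230) and Rfxank at -0.31 ± 0.16 (adjusted p = 0.131). In 18f Rfx5 stood at 3.50 log2 CPM, inside the control range of 3.32 to 3.89. With library totals, which raised the median of all genes, 4 of the 7 were called higher, beside 35.2% of all genes. Rfxank then turned to 0.11.

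In the interferon gamma route to CIITA 3 of 9 tested genes rose and 0 fell, with a median of 0.31. Over all tested genes 15.3% were called higher and 23.2% lower. Ifngr2, a receptor subunit gene, rose by 1.09 ± 0.28 (adjusted p = 0.0109) and Socs1, a feedback inhibitor gene, by 0.98 ± 0.30 (adjusted p = 0.0241). Socs1 was not past the threshold without M5 (adjusted p = 0.0520) or M602 (adjusted p = 0.0914). Irf1, the gene of a factor that acts at the Ciita promoter, was at 0.31 ± 0.27 (adjusted p = 0.371). Ifng itself was scarce, below the minimum level for the test, and listed with 0 reads in 18f and in control F539.

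The endosomal processing list holds genes that act on the invariant chain and on antigen. Of these, 4 of 7 rose and 0 fell (15.3% of all tested genes were called higher), with a median of 1.88. The other members, Ctsl (-0.0030, adjusted p = 0.996), Ctsb (0.05, adjusted p = 0.939) and Ctsd (0.44, adjusted p = 0.458), are cathepsin genes that did not pass. Ctss, the gene of cathepsin S, which makes the last cuts in the invariant chain, rose from 6.33 ± 0.79 to 8.93 ± 1.00 log2 CPM (SD), a change of 2.60 ± 0.54 (adjusted p = 0.00436). Ctsh, another cathepsin gene, rose by 1.88 ± 0.27 and Ifi30, the gene of the lysosomal thiol reductase GILT, by 1.96 ± 0.30 (adjusted p = 0.00111 and 0.00134). In 18f Ctss stood at 9.29 and Ifi30 at 7.74 log2 CPM, above every control. March1, the ubiquitin ligase gene that takes class II molecules off the surface, rose by 2.49 ± 0.37 (adjusted p = 0.00120). March8, a related ligase gene, fell by 0.71 on the log2 scale (SE 0.24, adjusted p = 0.0378). The March8 call was lost with library totals (-0.28, adjusted p = 0.239), with limma-voom (adjusted p = 0.0649) and without any single animal other than 18f, M566 or F539 (adjusted p up to 0.125).

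Among costimulatory genes 2 of 5 tested rose and 0 fell, beside 15.3% of all tested genes called higher. Cd86 rose by 1.61 ± 0.36 (adjusted p = 0.00605) and Cd40 by 1.59 ± 0.46 (adjusted p = 0.0191, 0.0644 without M602 and 0.0518 with limma-voom). On the T cell side 4 of 9 rose, beside the same 15.3% of all tested genes. Cd4, the coreceptor gene that binds class II, rose by 2.68 ± 0.57 (adjusted p = 0.00514) and Cd3d by 2.50 ± 0.65 (adjusted p = 0.0123). The control mean of Cd3d was 0.40 log2 CPM, below the minimum of 1. Cd3d was thus tested only through its anomaly values, and its call adds no support for a rise. Lag3, the gene of an inhibitory class II receptor, was at 0.16 ± 0.48 (adjusted p = 0.811).

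**Figure D3:**
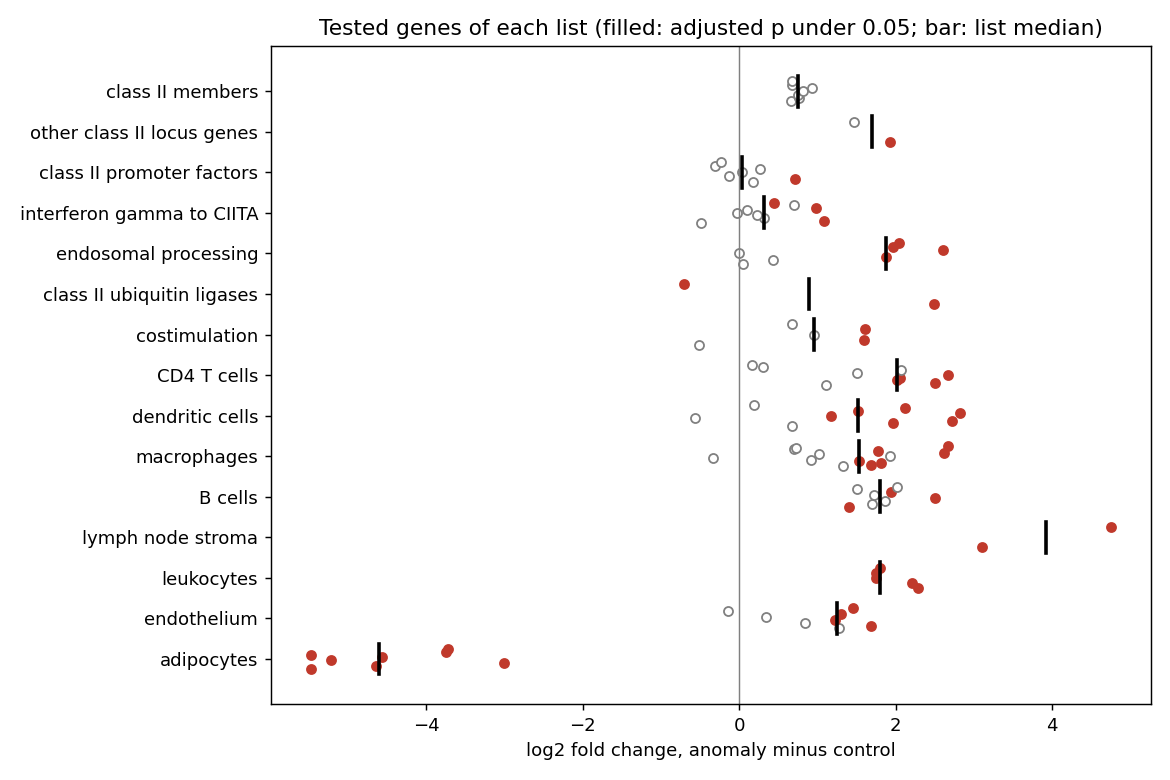
Log2 fold change, anomaly minus control (x axis), of each tested gene in the class II set and the 14 context lists (rows); filled points have an adjusted p under 0.05 and bars are list medians. The class II row holds 7 open points around 0.75, and 5 of 5 leukocyte points are filled.

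Part of the markers of cells that carry class II were called higher, and the counts are read beside the 15.3% of all genes called higher. In these bulk samples fewer cells of a type and less RNA per cell cannot be told apart. All 5 general leukocyte genes rose, with a median of 1.81, among them Ptprc at 1.81 ± 0.36, Cd52 at 2.28 ± 0.39 and Coro1a at 1.75 ± 0.31 (adjusted p = 0.00385, 0.00197 and 0.00236). In the dendritic cell list 6 of 9 tested genes rose, with Flt3, a growth factor receptor gene, at 2.83 ± 0.59 and Irf8, a lineage factor gene, at 1.52 ± 0.38 (adjusted p = 0.00454 and 0.00997). Flt3, Ccr7 and Ccl22, all among those called, had control means of -0.32, -0.08 and -0.16 log2 CPM, below the minimum of 1. They were tested only through their anomaly values, so their calls add no support for a rise. Itgax, which codes for CD11c, rose by 2.13 ± 0.58 (adjusted p = 0.0155, and 0.0626 without M602). In the macrophage list 6 of 13 rose, with Ms4a7 at 2.68 ± 0.43 and the Fc receptor gene Fcgr1 at 2.61 ± 0.46 (adjusted p = 0.00156 and 0.00228). The macrophage genes Mrc1 (0.72), Mertk (0.70), Cd14 (0.92) and Cd163 (-0.33) and the dendritic cell genes Zbtb46 (0.19) and Cd209a (-0.57), named after their values were seen, did not pass (adjusted p from 0.303 to 0.785). The B cell list had 3 of 8 tested genes higher, and 8 of 9 without 18f, where 17.7% of all genes were then called higher. Cd22 rose by 2.50 ± 0.51 (adjusted p = 0.00404) and Bank1 by 1.40 ± 0.42 (adjusted p = 0.0215, 0.0523 with limma-voom, 0.0636 without M602 and 0.0617 without M2). Of the lymph node stroma list 2 of 6 genes reached the minimum level and both rose. These were Madcam1 at 4.75 ± 1.20 (5.57 without M610 and 5.53 without F539) and Cxcl13 at 3.10 ± 1.05. The whole list summed to between 1.18 and 23.7 CPM in controls and between 8.31 and 192 CPM in anomalies. Genes this low in controls can reach the minimum through their anomaly values, so the count adds no support for a rise. Madcam1 had an adjusted p of 0.0574 with limma-voom. Cxcl13 lost its call with limma-voom (adjusted p = 0.157) and without any one of M580, M566, F578, M5 or M602 (adjusted p up to 0.117).

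The endothelial list had 4 of 8 genes higher, beside 15.3% of all tested genes. Among them were Esam at 1.22 ± 0.32 and Emcn at 1.69 ± 0.51 (adjusted p = 0.0130 and 0.0240). Esam lost its call when M566 was represented by its leg piece alone (adjusted p = 0.0523), and Emcn lost its call without M602 (adjusted p = 0.0774) or M2 (adjusted p = 0.0763). All 8 adipocyte genes fell, where 23.2% of all tested genes were called lower. Slc2a4, the glucose transporter gene, was at -3.72 ± 0.38 and Lipe, a lipase gene, at -4.56 ± 0.93 (adjusted p = 0.000569 and 0.00408).

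Set against such markers within each animal, H2-Ab1 showed no shift past the threshold. H2-Ab1 minus Ptprc was 1.59 ± 1.40 in anomalies and 2.57 ± 0.31 in controls (SD, n = 7 and 4), a difference of -0.98 (exact permutation test, adjusted p = 0.319). Against Csf1r, the macrophage growth factor receptor gene, the difference was -0.20 (exact permutation test, adjusted p = 0.894). It was -1.30 against Itgax (exact permutation test, adjusted p = 0.250). In 18f H2-Ab1 lay 1.19 below Ptprc and 3.03 below Csf1r, where the controls lay between 2.19 and 2.92 above Ptprc and between -0.01 and 1.33 of Csf1r. M580 was next for Ptprc, at 0.75 above it. Without 18f the difference was -0.52 for Ptprc and turned to 0.40 for Csf1r, and neither passed (exact permutation tests, n = 6 and 4, adjusted p = 0.374 and 0.512).

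**Figure D4:**
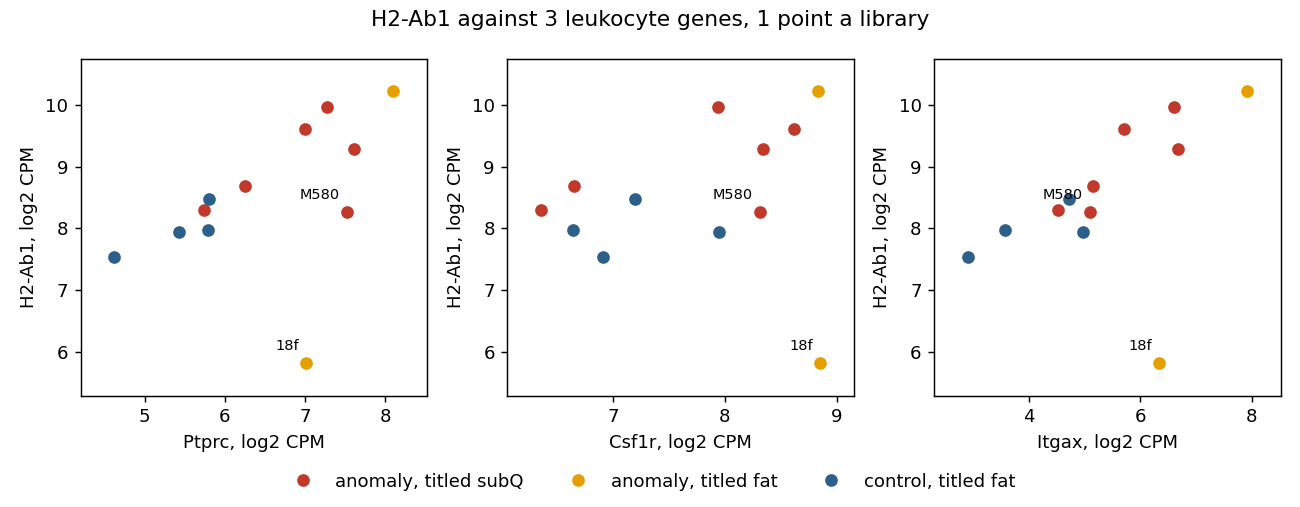
H2-Ab1 (y axis, log2 CPM) against Ptprc, Csf1r and Itgax (x axes, log2 CPM), 1 point a library, coloured by group and title site. The library of 18f lies below all others in every panel, and to the right of the controls.

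The 18f library held leukocyte RNA with little class II. The genes named next were chosen after their values were seen. The 13 macrophage genes summed to 6891 CPM in 18f, the most of any library, against 841 to 6891 over the anomalies and 889 to 1700 over the controls. Cd68 stood at 9.68, Adgre1 at 8.15 and Cd163 at 8.80 log2 CPM there, above the control ranges of 4.67 to 6.69, 4.74 to 6.00 and 5.02 to 6.52. All 13 stood above every control. The 10 B cell genes summed to 22.0 CPM in 18f, the least of any anomaly, and to between 16.8 and 28.2 CPM in controls. Of these 10 genes 7 stood below every control in 18f, and 2 (Cd22 and Bank1) above every control. The 12 dendritic cell genes summed to 178 CPM in 18f and to between 78.5 and 125 CPM in controls, with 3 genes above and 4 below every control. The 11 CD4 T cell genes summed to 109 CPM in 18f and to between 22.6 and 52.9 CPM in controls, with 6 above and 2 below every control. Adipocyte genes summed to 19814 CPM in 18f, the most of any anomaly, and to between 20223 and 56285 CPM in controls. The part of these cell type differences in the low class II level of 18f was not tested.

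The site in the title did not separate the members. H2-Ab1 in subQ lesions minus fat lesions was 1.10 ± 0.93 log2 (SE, n = 5 and 2, adjusted p = 0.584, limma with both sites and the controls), and Ciita was 1.43 ± 0.92 (adjusted p = 0.478). Without 18f, which leaves 1 fat lesion, the difference turned negative for all 7 tested members, from -0.82 for Ciita to -1.48 for H2-Aa, and 0 passed (adjusted p from 0.956 to 0.974). Of the 7 tested members 0 passed, where 0.0386% of all genes did, and for all 7 the fat lesions were the lowest (18f) and the highest (M278) anomaly. In the subQ lesions alone 4 of 7 members passed against the controls (H2-Ab1 at 1.14, Ciita at 1.17, H2-DMa at 1.04 and H2-DMb1 at 0.75, where 42.6% of genes were called and 16.4% higher). All controls are titled fat, so site and lesion cannot be told apart in that contrast. It also leaves out 18f and M278. In the fat lesions alone 0 passed, beside 11.9% of all genes in either direction and 6.45% higher, with H2-Ab1 at 0.04 ± 1.12.

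Over the 12 libraries, the gene outside the set whose pattern was nearest to the mean of H2-Aa, H2-Ab1, H2-Eb1 and Cd74 was Kmo, a kynurenine pathway enzyme gene. The measure was the root mean square difference of centred log2 CPM, 0.55 for Kmo, against a median of 1.28 over 12948 genes. Ms4a4b, a lymphocyte membrane protein gene, Ctsw, a cathepsin gene of cytotoxic lymphocytes, Gucy1b1, a soluble guanylate cyclase subunit gene, and Rab37, a small GTPase gene, followed at 0.56, 0.58, 0.58 and 0.60. Within the set Ciita was nearer, at 0.24, although it did not enter the mean, while H2-DMa was at 0.48, H2-DMb1 at 0.55 and H2-Oa at 1.31. Kmo stood at 0.71 log2 CPM in 18f and between 1.90 and 3.12 in the other anomaly libraries, with controls from 1.01 to 1.60.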

How the data were processed

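RNA was sequenced from 8 anomaly and 4 control libraries. Per the submitters' processing notes, STAR and limma were used with builds mm10 and GRCm38. The authors deposited log2 values, read here as log2 CPM with a small prior (lowest value -6.97). The function and prior are not given in the sources used here. Per the file headers, M605 has a control name in the first header line and an anomaly name in the second, and it was kept as an anomaly, as the labels give it. Animals are the replicates, as the titles name them, and p-values measure the spread between these animals.

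After the prior was subtracted, 100% of linear values lay within 0.1 of a whole multiple of 1 step per library. These multiples, read as reads, summed to between 10337258 and 33980694 per library, and to 953994 in M580, where 3 reads are worth 2.23 CPM (0.0914 to 0.267 elsewhere). Counting error alone is covered by such floors. The deposited scaling implies library sizes of 1.09 to 1.41 times the read total in anomalies and 0.795 to 1.09 times in controls.

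limma 3.58.1 (R 4.3.3, statmod 1.5.0) was fitted to genes whose mean over 11 animals reached 1 log2 CPM, with trend and robust variances, two-sided, Benjamini-Hochberg over all tested genes, threshold 0.05. It was tested on simulated data. Gene pairs were tested by exact permutation over animals (Benjamini-Hochberg over 11 pairs). Fold changes near the floor depend on the prior. Names matched for 32671 identifiers, and coordinates and exon lengths are GENCODE vM21. Named context genes are the 2 with the smallest adjusted p in each list, lists of at most 4 in full, genes of the fixed pairs, and Ifng, Irf1, Rfx5, Ctss, Cd4 and Lag3. Some results under this rule are not reported here. Members, lists and tests were chosen with earlier results of these data known.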

Additional observations from a re-analysis of the deposited data

Results flagged for a closer look

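Over 118 sets of anomaly or control values, 10 had 1 animal standing apart from its group by Dixon's 95% criterion, and 6 of the 10 came from 18f. Chance gives about 1 in 20 independent sets. These sets share animals and genes, so that rate does not apply to the count. The flags of Cd74, Ciita and the H2-Ab1 differences restate the low class II level by which 18f was singled out. Cd74 stood at 7.20 log2 CPM in 18f, with the next anomaly animal at 9.75. Ciita stood at 1.35 log2 CPM in 18f, with the next at 4.27. Ifng was at the floor of -6.97 log2 CPM (0 reads) in 18f, with the next at -2.40. H2-DMa minus H2-Ab1 was -1.92 in 18f and -3.20 in the next animal. H2-Ab1 minus Csf1r was -3.03 in 18f, next to -0.0479, and H2-Ab1 minus Itgax was -0.511 in 18f, next to 2.30. Outside 18f, Csf1r was lowest in M566 at 6.51 log2 CPM, next to 7.94, and Fcgr1 was lowest in M566 at 3.34, next to 4.99. Madcam1 was lowest in M610 at -1.49 log2 CPM, next to 3.08. The pseudogene H2-Ea-ps was at -0.414 log2 CPM in M580, which is 1 read in that library, and at the floor elsewhere.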

How the results depend on the processing

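The 0 class II members past the threshold became 1 with library totals (H2-DMa), 1 with no filter on low values and 1 with at least 1 CPM in 4 animals (both H2-Oa, which meets the latter through the anomaly animals, so that call adds no support), 4 in the subQ lesions alone, and 7 without 18f and M580 together, a setting chosen after seeing the data. Leaving out 1 animal at a time gave between 0 and 7 (7 without 18f, and 1 without M602, which is H2-Oa admitted through its anomaly values). All genes past the threshold numbered 1518 with the fat lesions alone and between 3028 (without M602) and 5817 (without 18f) with 1 animal left out. The subQ against fat contrast called 49 genes with no filter in place of 5. Directions turned with the fat lesions alone for H2-Eb1 (-0.12), Cd74 (-0.093) and Ciita (-0.26), and for Rfxank with library totals (0.11). With 1 animal left out, Lag3 ran from -0.092 (without M278) to 0.39. H2-DMa minus H2-Ab1 ran from -0.12 (without 18f) to 0.18. Ciita minus H2-Ab1 ran from -0.13 to 0.0052 (without M5), and H2-Ab1 minus Csf1r from -0.48 to 0.40 (without 18f). None of these values passed, and the cause was not tested. Without 18f, a setting also chosen after seeing the data for the site contrast, subQ minus fat turned negative for all 7 tested members (-1.10 for H2-Ab1). Of 29 named genes called with all animals, 15 lost their call with the fat lesions alone, Esam among them.

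The planned edgeR and DESeq2 fits were not run, because the deposited unit is log2, and limma-voom used the deposited scaling in place of TMM. No paired analysis was possible because the labels give the groups no shared replicate numbers. M580 has 953994 reads, which limits its low genes, H2-Oa among them.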
